A study of Sus scrofa with 3 samples.

Results

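The step from the cap stage to the early bell stage was followed in the last deciduous molar germ of the mandible of Wuzhishan miniature pigs, by setting the embryonic day 50 (E50) array against the embryonic day 40 (E40) array. It took 2 of the 3 arrays of the study, which also measured E60, and 23999 of the 24123 probe sets on each, since 124 array controls were left out. On E40 the germ was at the cap stage and had no secondary dental lamina, the epithelial strand from which the successional tooth grows, and on E50 it was at the bell stage with that lamina beginning to form. On E60, used here only for values side by side, the germ was at the secretory stage. For each stage, molar germs with their dental lamina were dissected from the mandibles of 1 litter and pooled into 1 RNA sample, which was hybridized to 1 Affymetrix Porcine Genome Array. No treatment or genotype is named, so age was the only named difference, but litter, dissection and array changed with it and cannot be told apart from it. With 1 array per stage there is no replicate error and no p-value, and a fold change compares 2 arrays and not 2 populations of embryos.

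A tooth germ is built from oral epithelium and the neural crest mesenchyme beneath it. At the cap stage the epithelium folds over the condensed mesenchyme of the dental papilla, and at the bell stage it becomes a layered enamel organ whose inner layer gives rise to ameloblasts, the cells that secrete enamel, while the papilla cells next to it become odontoblasts, which secrete dentin. Signals of the BMP, FGF, Wnt and hedgehog families pass back and forth between the tissues throughout, and mesenchymal transcription factors such as MSX1 are needed for the germ to pass the early stages.

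The values are log2 MAS 5.0 signals, given below as linear signals. Each array's 25th percentile served as its floor, and dimmer signals were lifted to that value, 29.3 for E40, 17.2 for E50 and 21.8 for E60. Against a lifted signal a fold is a lower bound. As the E40 floor was higher, a gene dim on both arrays can have a negative log2 difference from the floors alone. Probe sets with at least 1 of the E40 and E50 signals at or above the floor were taken as measured, which gave 19132 probe sets and 6195 named genes, and 4867 probe sets were under the floor on both arrays. Each gene is given by its brightest probe set unless several are named, and levels of different probe sets are not compared with each other. The only check on a fold within these arrays was the agreement of several probe sets of 1 gene. Around the mean of their gene, the log2 differences had an SD of 0.60 over 1853 genes with 2 or more measured probe sets, 0.35 over 676 genes with both signals at 200 or more, and 0.76 over 546 genes with a signal under 200. All 27 probe sets of the spiked hybridization controls were lower on E50, by a median log2 difference of -0.26. The ratio of the 3' to the 5' control probe sets, a sign of RNA quality, went from 1.53 on E40 to 4.55 on E50 for 1 GAPDH set. For the other GAPDH sets it went from 1.84 to 1.36 and from 1.41 to 1.57, and for actin it went from 4.95 to 3.71. The part of these differences in the results was not tested.

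Falls outnumbered rises from E40 to E50. Over 2-fold higher on E50 were 477 probe sets, 1.99% of all, and over 2-fold lower were 2862 probe sets, 11.9% of all. The higher ones thus made up 14.3% of those called (95% Wilson interval 13.1 to 15.5, which covers counting error only). That share depended on the scaling of the arrays, and was 44.6% with the array medians set equal, 42.8% after quantile normalization and 31.3% with the spiked controls set equal. Of the lower probe sets, 881 were under the floor on E50, and 2016 had no single gene symbol. Among the 6195 named genes, 167 were higher, 2.7%, and 497 were lower, 8.02%, with a median log2 difference of 0.04. Setting the medians equal moved that median to 0.43, the spiked controls moved it to 0.30, and quantile normalization moved it to 0.13. Among 3098 bright genes, with a geometric mean signal of 587 or more, rises and falls were nearly equal in number, with 60 higher, 1.94%, and 51 lower, 1.65%. The share of falls was thus higher among dim signals.

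**Figure D1:**
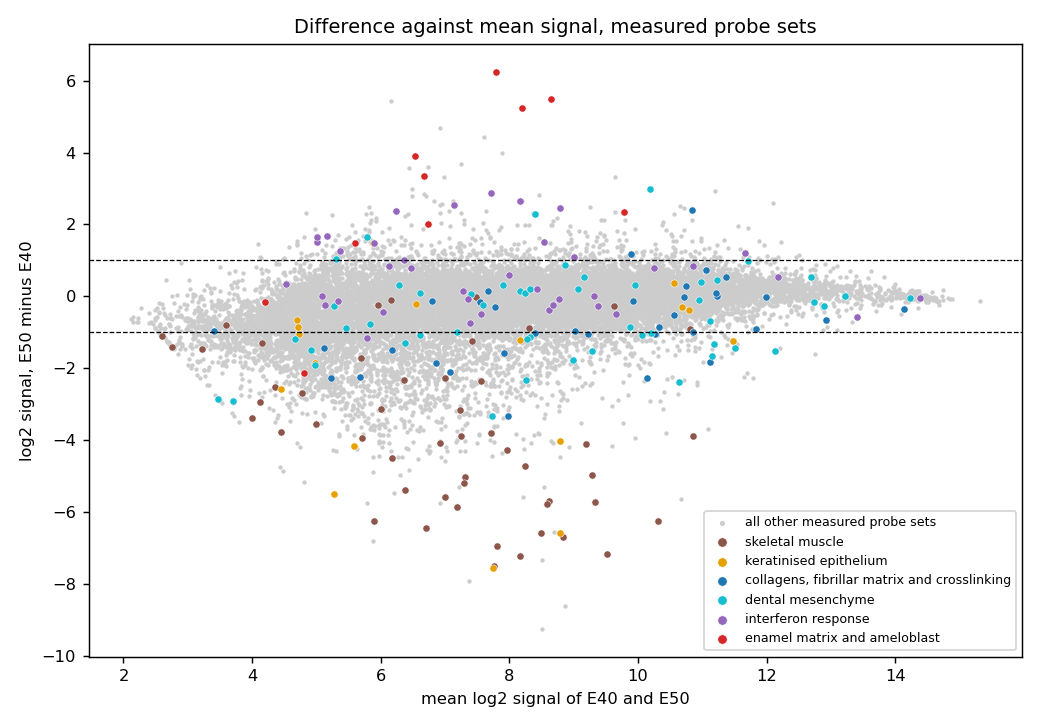
Log2 signal on E50 minus E40 (vertical axis) against the mean log2 signal of both arrays (horizontal axis), 1 point for each of 19132 measured probe sets, with 6 gene lists in colour and dashed lines at 2-fold. Muscle genes lie far below the cloud, enamel genes far above it, and the cloud widens downward at low signals.

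Several probe sets of a gene gave a stricter count. Among 1853 genes with 2 or more measured probe sets, all of them were over 2-fold higher in 16 genes, 0.863%, and all over 2-fold lower in 47 genes, 2.54%. All 16 of the former and 42 of the latter were outside the lists of skeletal muscle and keratinised epithelium. The 42 still hold ITGB1BP2, a muscle gene that the list lacks. The excess of falls depended on the scaling. With equal medians 37 genes were higher and 25 lower on all probe sets, and after quantile normalization 22 and 21. Probe sets of 1 gene passed 2-fold in opposite directions in 6 genes (CANX, ICA1, LOC100737113, PDLIM5, PIGL and VLDLR). At least 1 probe set was higher in 81 genes, and in 48 of these no probe set of the gene was under 0.

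As a list, genes of skeletal muscle, a tissue outside the germ, fell furthest. Of 42 measured muscle genes 38 fell, none rose and the median log2 difference was -4.09, while 8.02% of all measured genes were lower. The regulatory light chain MYLPF had a signal of 8766 on E40 and 60.9 on E50 (144-fold lower), and the giant sarcomere protein nebulin (NEB) a signal of 3494 on E40 and 23.3 on E50 (149.6-fold lower). The summed signal of the muscle list was 75198 on E40 and 3704 on E50, and the myogenic factors MYOD1 and MYF5 were under the floor on E50. Keratinised epithelium was lower too, with 8 of 15 measured genes down, 1 up and a median of -1.06, and its summed signal went from 19609 to 7021. Involucrin (IVL), a protein of the cornified envelope, was at 3255 on E40 and 14.2 on E50 (at least 189-fold lower). In pooled tissue, fewer cells of a type and less RNA of that type per cell cannot be told apart, here and for every gene below. Without both lists, 166 genes were higher and 451 lower among 6138. The lower ones still hold muscle genes outside the list, such as ITGB1BP2 and XIRP2.

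**Figure D2:**
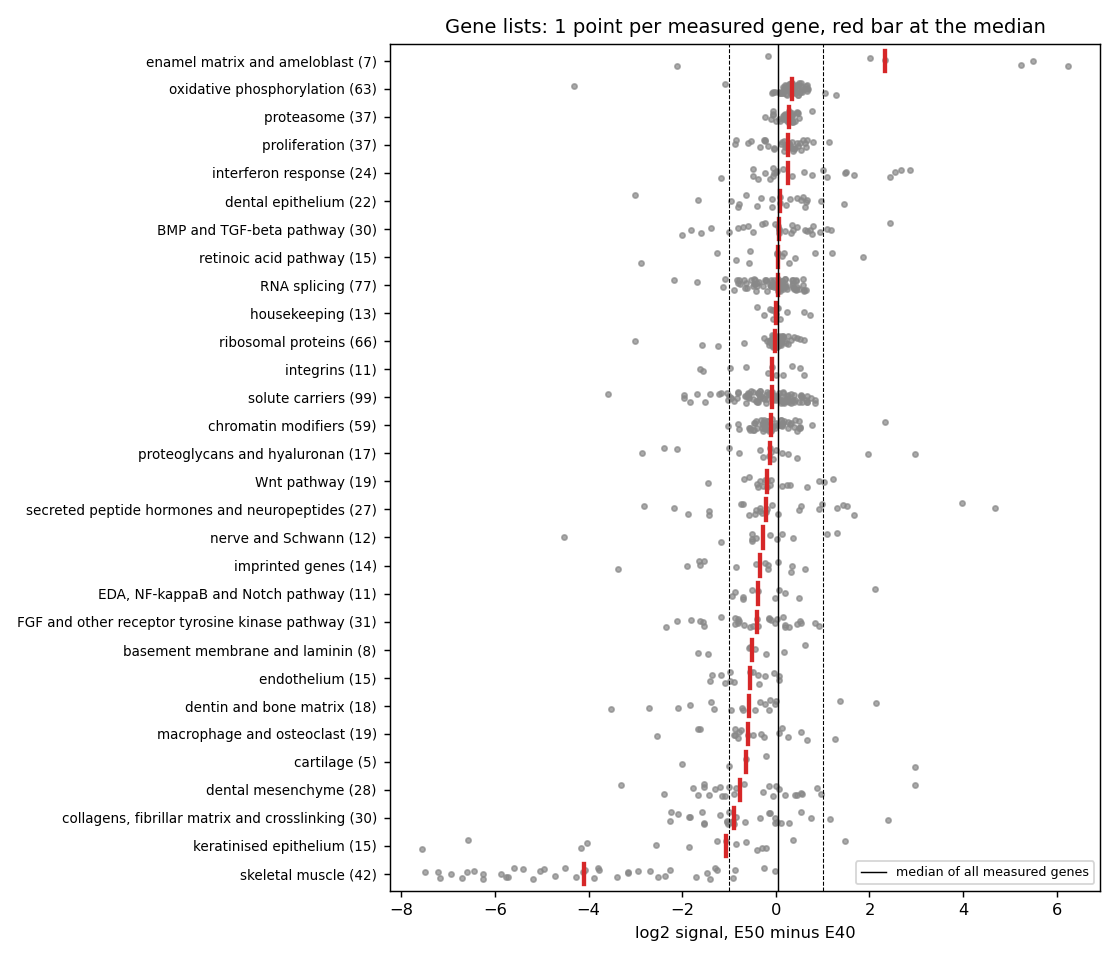
Log2 signal on E50 minus E40 for each measured gene (grey points, brightest probe set) of every list with at least 5 measured genes, with the number of genes in brackets, the list median as a red bar, the median of all measured genes as a solid line and 2-fold as dashed lines. The enamel list lies to the right, and collagens, dental mesenchyme and both neighbouring tissues lie to the left.

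In the tooth epithelium, genes of the enamel matrix and of ameloblasts had the highest median of all lists. The 22 general dental epithelium genes were called about as often as all measured genes. Of 7 measured enamel genes 5 were higher and 1 was lower, against 2.7% and 8.02% of all measured genes. The median log2 difference was 2.34, the value of SATB1, and was positive under every alternative run. Ameloblastin (AMBN), an adhesive protein of the enamel matrix, had a signal of 59.8 on E40 and 2675 on E50 (44.7-fold higher). Amelogenin (AMELX), the most abundant enamel protein, was at 22 on E40 and 2218 on E50 (at least 75.8-fold higher). Both are products of the ameloblast lineage, and each has 1 named probe set. Enamelysin (MMP20), the protease that cuts amelogenin during secretion, was at 53 on E40 and 213 on E50 (4.01-fold higher), and with the floor at the 50th percentile its log2 difference was 0.38 and no longer over 2-fold. Enamelin (ENAM), the largest enamel protein, was at 13.1 on E40 and 26.1 on E50, so no fold is given. Kallikrein 4 (KLK4), the protease of the later maturation stage, was at 75.1 on E40 and 10.4 on E50 (at least 4.36-fold lower). On E60 the signals were 29942 for AMBN, 16881 for AMELX, 5407 for MMP20 and 6972 for ENAM, all higher than on E50, while KLK4 was at 6.98, under the floor.

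The 2 members of the enamel list with several measured probe sets, SCIN and SATB1, were higher on all of them. Which tissue of the pooled germs expressed these genes was not tested. Scinderin (SCIN), an actin severing protein, was at 47.8 on E40 and 1806 on E50 (37.7-fold higher) on its brightest probe set and at 19.8 on E40 and 436 on E50 (at least 14.9-fold higher) on the second. SATB1, a chromatin organizer, was at 393 on E40 and 1983 on E50 on the brightest probe set, at 31.8 on E40 and 325 on E50 on the second and at 29.2 on E40 and 81.2 on E50 on the third, which gave rises of 5.05-fold, 10.2-fold and at least 2.78-fold. SATB1 is best known from thymocytes and skin, where it folds chromatin at cell type genes. Its remaining probe set was under the floor on both arrays. The SCIN signal on E60 was 1317, lower than on E50, and that of SATB1 was 4020.1, higher.

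Of 22 measured dental epithelium genes 1 was higher (4.55%) and 2 were lower (9.09%), with a median of 0.09. These shares were near the 2.7% and 8.02% of all measured genes. With equal medians 5 were higher. When each gene is taken as the median over its probe sets, 4 were lower and the median was -0.06. None of the 11 bright ones passed 2-fold, and of all bright genes 1.94% were higher and 1.65% lower. E-cadherin (CDH1), the adhesion protein of epithelial junctions, was at 4286 on E40 and 4566 on E50. The epithelial splicing factor ESRP1 was at 4588 on E40 and 4330.1 on E50, the simple keratin KRT8 at 5616 on E40 and 8428 on E50 and the desmosomal protein PERP at 14867 on E40 and 14003 on E50. The widest of these ratios was 1.5-fold, for KRT8, whose other probe set went the opposite way with a log2 difference of -0.64. The adhesion protein EPCAM, at 3186 on E40 and 6188 on E50, came near the threshold with a log2 difference of 0.96, as did desmoplakin (DSP), the main desmosomal plaque protein, at 10408 on E40 and 5386 on E50 and -0.95, and its second, dim probe set was at 61.3 on E40 and 10.4 on E50 (at least 3.56-fold lower). OVOL1, a transcription factor of epithelia, was at 129 on E40 and 82 on E50, and at 76.5 on E40 and 10.3 on E50 (at least 4.44-fold lower) on its second probe set. KRT18, the partner of KRT8, passed 2-fold at 163 on E40 and 444 on E50 (2.72-fold higher). The epithelial transcription factor ELF3 fell on both probe sets, from 608 to 75.7 and from 65.4 to 24.5. ELF3 is linked to terminal differentiation of surface epithelia, and keratinised epithelium, whose summed signal was lower as well, is 1 such tissue. Its part in the fall of ELF3 was not tested. The hemidesmosomal collagen COL17A1 was also called lower, from 54.7 to a signal under the floor, but with a common floor for both arrays its log2 difference was -0.90, and that of its second probe set was -0.70.

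**Figure D3:**
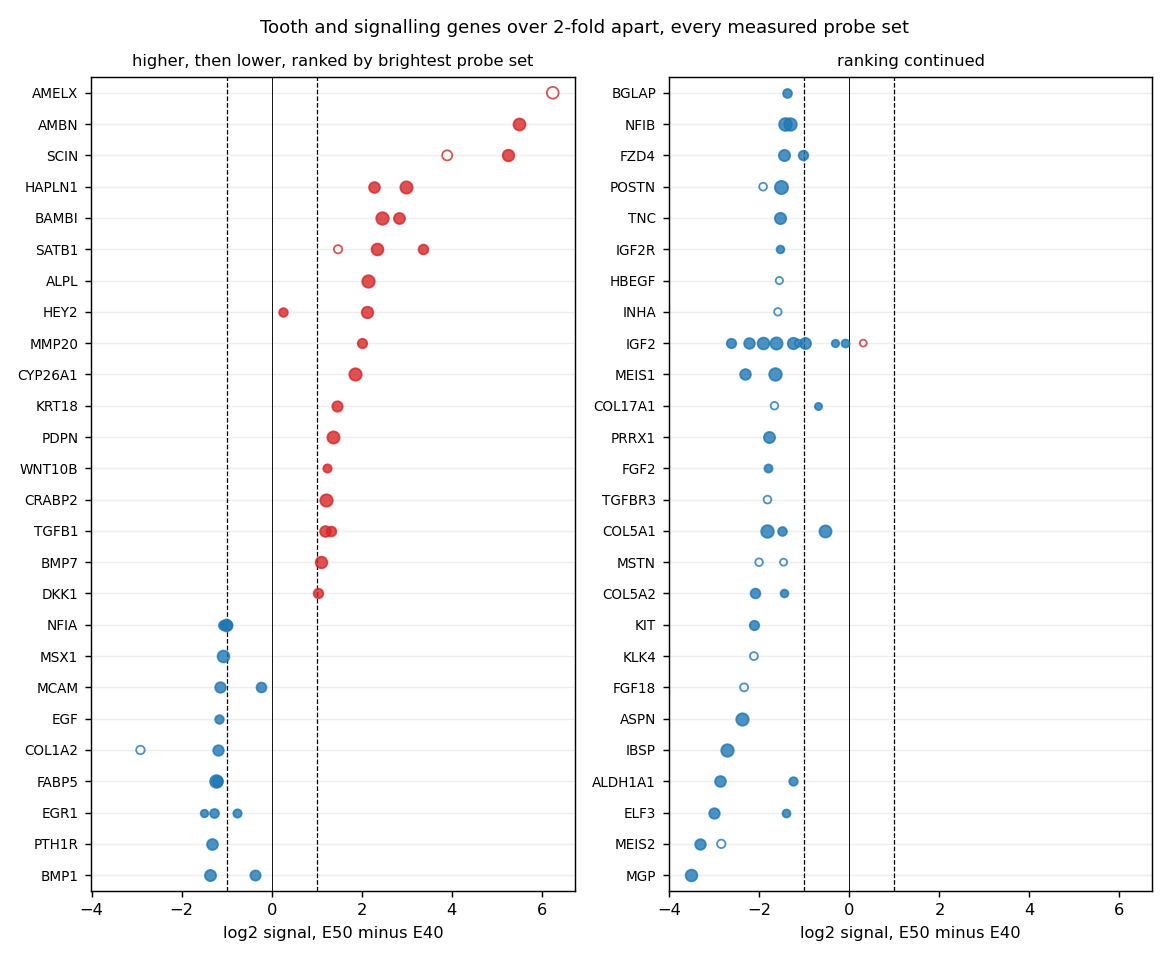
Log2 signal on E50 minus E40 for every measured probe set of the tooth epithelium, tooth mesenchyme and signalling genes whose brightest probe set passed 2-fold (dashed lines), ranked by that probe set across both panels, with red for higher and blue for lower. Open circles have 1 signal under the floor and larger circles are brighter. SCIN, SATB1, HAPLN1, BAMBI and TGFB1 lie past 2-fold on every circle, while HEY2 passes 2-fold on its brightest probe set alone and IGF2 spreads from -2.63 to 0.31.

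Many dental mesenchyme genes fell. Of 28 measured genes 12 were lower and 1 was higher, with a median log2 difference of -0.77, against 8.02% of all measured genes lower and a median of 0.04. Of the 18 bright ones, 7 were lower. The median was below 0 under every scaling, at -0.38 with equal medians. With the floor at the 50th percentile it was -0.48, and with each gene as the median over its probe sets -0.42. The number of lower genes was 7 with equal medians, 9 after quantile normalization and 8 with the spiked controls set equal. Of 17 members with several measured probe sets, MEIS1, MEIS2, NFIB, COL1A2 and POSTN were lower on all of them and HAPLN1 was higher on all.

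MEIS1 and MEIS2 are homeodomain partners of HOX and PBX proteins and are active in facial mesenchyme. MEIS1 was at 4013 on E40 and 1275 on E50 (3.15-fold lower), and at 682 on E40 and 137 on E50 (4.99-fold lower) on its second probe set. MEIS2 was at 669 on E40 and 67.1 on E50 (9.98-fold lower), and at 124 on E40 and 1.0 on E50 (at least 7.2-fold lower) on its second. The nuclear factors I are a family of transcription factors of growing organs. NFIB was at 4791 on E40 and 1777 on E50 (2.7-fold lower), and at 3671 on E40 and 1467 on E50 (2.5-fold lower) on its second probe set. For NFIA the 3 probe sets had log2 differences of -1.01, -0.99 and -1.08, next to the threshold, with -1.01 becoming -0.62 with equal medians, and NFIC, the family member known for root growth, was at 1749.5 on E40 and 2323 on E50, which is not lower. PRRX1, a marker of limb and facial mesenchyme, was at 944 on E40 and 275 on E50 (3.43-fold lower). MSX1, without which molars stop at the bud stage, was at 1559 on E40 and 737 on E50 (2.12-fold lower), with a log2 difference of -0.69 with equal medians. TFAP2B, a neural crest factor, was at 1265 on E40 and 702 on E50, within 2-fold.

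Not all mesenchymal regulators were lower. DLX5, a homeobox gene of the dental papilla and of bone, was at 2399 on E40 and 4702 on E50, just short of 2-fold higher with a log2 difference of 0.97. TWIST2 was at 343 on E40 and 630.1 on E50 and the FGF target ETV5 at 498 on E40 and 574 on E50. Other mesenchymal markers stayed within 2-fold. Vimentin (VIM), the intermediate filament of mesenchyme, was at 19634 on E40 and 18933 on E50, and the proteoglycans lumican (LUM) at 9491 on E40 and 9528 on E50, decorin (DCN) at 8339 on E40 and 6894 on E50 and versican (VCAN) at 7187 on E40 and 6445 on E50. The falls thus did not extend to these 4 markers. Muscle genes, whose summed signal fell on the same array, and the connective tissue around muscle were not separated from dental mesenchyme, and their part in the falls was not tested.

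The other lower members named here are EGR1 and MCAM. EGR1, an early response factor, was at 130.4 on E40 and 53.1 on E50 (2.45-fold lower), with log2 differences of -0.76 and -1.50 on its other probe sets. MCAM, an adhesion protein of perivascular and pulp cells, was at 474 on E40 and 214 on E50 (2.21-fold lower), but its second probe set was at 209.8 on E40 and 177 on E50.

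Many genes of the fibrillar matrix were lower too. Of 30 measured genes for collagens, fibrillar matrix and crosslinking 13 were lower and 2 higher, against 8.02% and 2.7% of all measured genes. The median of the list was -0.90, and of its 21 bright genes 7 were lower. That list shares COL1A2, COL3A1, POSTN and TNC with dental mesenchyme. Its median was below 0 under every alternative, from -0.92 when scaled to housekeeping genes to -0.51 with equal medians, where 8 genes were lower. Of 10 members with several measured probe sets, COL1A2, COL5A2, COL5A3 and POSTN were lower on all of them.

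Among the fibril collagens, chains of types I and V fell. The type V chains regulate the width of type I collagen fibrils. COL5A1 was at 4218 on E40 and 1182 on E50 (3.57-fold lower) on the brightest probe set, at 1809.7 on E40 and 1249.8 on E50 on the next and at 121 on E40 and 42.8 on E50 (2.83-fold lower) on the third. COL5A2 was at 279 on E40 and 65.3 on E50 (4.27-fold lower) and, on its second probe set, at 57.5 on E40 and 21.1 on E50 (2.72-fold lower). COL1A2, a chain of type I collagen, was at 470.4 on E40 and 206 on E50 (2.29-fold lower) and, on its second, at 130.3 on E40 and 1.29 on E50 (at least 7.56-fold lower). The brighter of these moved to -0.81 with equal medians. COL3A1, at 59.9 on E40 and 32.4 on E50, stayed within 2-fold. COL6A2, a chain of the beaded filament collagen, was at 1763 on E40 and 853 on E50 (2.07-fold lower) and COL6A3 at 5022 on E40 and 2673 on E50.

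Matricellular proteins sit among the fibres and act on cells, and several members of the lists code for them. Periostin (POSTN), made by the mesenchyme of the dental follicle and periodontal ligament, was at 7621 on E40 and 2641 on E50 (2.89-fold lower), and at 65.2 on E40 and 15.4 on E50 (at least 3.78-fold lower) on its second probe set. Tenascin C (TNC), found around condensing mesenchyme, was at 1057 on E40 and 365 on E50 (2.9-fold lower). Thrombospondin 2 (THBS2), an inhibitor of vessel growth, was at 2476 on E40 and 515 on E50 (4.8-fold lower), and tenascin X (TNXB) was at 111 on E40 and 23.4 on E50 (4.73-fold lower). These genes are made by loose connective tissue as well as by the germ. THBS1 was at 861 on E40 and 415 on E50 (2.08-fold lower), but its second probe set was at 192 on E40 and 213 on E50. Fibronectin (FN1) was at 9747 on E40 and 6146 on E50 on the brightest probe set and at 799 on E40 and 79.9 on E50 (10.00-fold lower) on the next, so the probe sets of this gene did not give 1 answer.

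Crosslinking enzymes and microfibrils differed among themselves. Lysyl oxidase (LOX), which crosslinks collagen and elastin, was at 482 on E40 and 237 on E50 (2.04-fold lower) and was at 1694 on E60. LOXL4 was at 417 on E40 and 141 on E50 (2.97-fold lower) and was at 1418 on E60. LOXL1, of the same family, was at 2394 on E40 and 2422 on E50. Fibrillin 1 (FBN1), the backbone of microfibrils, was at 2632 on E40 and 1312 on E50 and, on its second probe set, at 727 on E40 and 369 on E50, both next to 2-fold. Dermatopontin (DPT), a small protein that speeds up collagen fibril assembly, rose against the rest, at 798 on E40 and 4205 on E50 (5.27-fold higher). MFAP5, a microfibril protein, was also higher, at 631 on E40 and 1414 on E50 (2.24-fold higher). The collagen chaperone SERPINH1, at 4095 on E40 and 4016 on E50, and the hydroxylases PLOD1, at 1701 on E40 and 1675 on E50, and PLOD3, at 1016 on E40 and 924 on E50, stayed within 2-fold.

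A hyaluronan synthase and a link protein rose, while 4 other genes of proteoglycans fell. Of 17 measured genes of proteoglycans and hyaluronan 2 were higher and 4 lower, against 2.7% and 8.02% of all measured genes. The median of -0.13 was 0.25 with equal medians and 0.12 with the spiked controls set equal. HAPLN1, which links hyaluronan to versican and aggrecan, was at 416 on E40 and 3281 on E50 (7.89-fold higher), and at 154 on E40 and 746 on E50 (4.85-fold higher) on its second probe set. Hyaluronan synthase 3 (HAS3) was at 1514 on E40 and 5923 on E50 (3.91-fold higher). Hyaluronan fills the stellate reticulum of the enamel organ and the spaces of the papilla. Asporin (ASPN), a small leucine-rich proteoglycan of the periodontal ligament, was at 3671 on E40 and 697 on E50 (5.27-fold lower). The related PRELP was at 134 on E40 and 18.4 on E50 (7.29-fold lower), glypican 3 (GPC3) was at 74.3 on E40 and 10.6 on E50 (at least 4.31-fold lower) and aggrecan (ACAN) was at 89.6 on E40 and 44.4 on E50 (2.02-fold lower).

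Most mineralization genes had negative log2 differences, 16 of 18 measured genes of dentin and bone matrix. Of these 18 genes, 6 were over 2-fold lower, COL5A1 and COL5A2 among them, and 2 over 2-fold higher. Over all measured genes 8.02% were lower and 2.7% higher. ENPP1 and PHOSPHO1 count among the negative ones with log2 differences of only -0.009 and -0.008. The median of -0.58 was below 0 under every alternative. It was -0.34 with a common floor, -0.29 with the floor at the 50th percentile and -0.19 with equal medians, where 4 genes were lower. DSPP lay at the middle of the list, and its log2 difference of -0.71 came from signals near or under the floor. Tissue-nonspecific alkaline phosphatase (ALPL), which frees phosphate for mineral and is high in the stratum intermedium next to ameloblasts, was at 875 on E40 and 3847 on E50 (4.4-fold higher). Podoplanin (PDPN), found in enamel epithelium, odontoblasts and young osteocytes, was at 929 on E40 and 2384 on E50 (2.57-fold higher). The tissue behind these 2 rises was not tested. Bone sialoprotein (IBSP), a nucleator of mineral made by osteoblasts, was at 4047 on E40 and 617 on E50 (6.55-fold lower) and back at 4585 on E60. Matrix Gla protein (MGP), an inhibitor of calcification in cartilage and vessel walls, was at 1892 on E40 and 164 on E50 (11.5-fold lower). Osteocalcin (BGLAP), a late osteoblast product, was at 131 on E40 and 50.2 on E50 (2.61-fold lower), and the parathyroid hormone receptor PTH1R was at 674 on E40 and 269 on E50 (2.51-fold lower). These 4 genes are known from alveolar bone and its neighbours, whose part in the falls was not tested.

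Osteonectin (SPARC), at 20266 on E40 and 15965 on E50, osteopontin (SPP1), at 6186 on E40 and 4539 on E50, and the pyrophosphatase ENPP1, at 615 on E40 and 611 on E50, stayed within 2-fold. Dentin sialophosphoprotein (DSPP), the main noncollagenous protein of dentin, was near or under the floor on its brightest probe set, at 18.1 on E40 and 17.9 on E50, and was called higher on 1 of the other probe sets, at 3.6 on E40 and 80.3 on E50 (at least 2.74-fold higher). On E60 the brightest probe set was at 592.

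**Figure D4:**
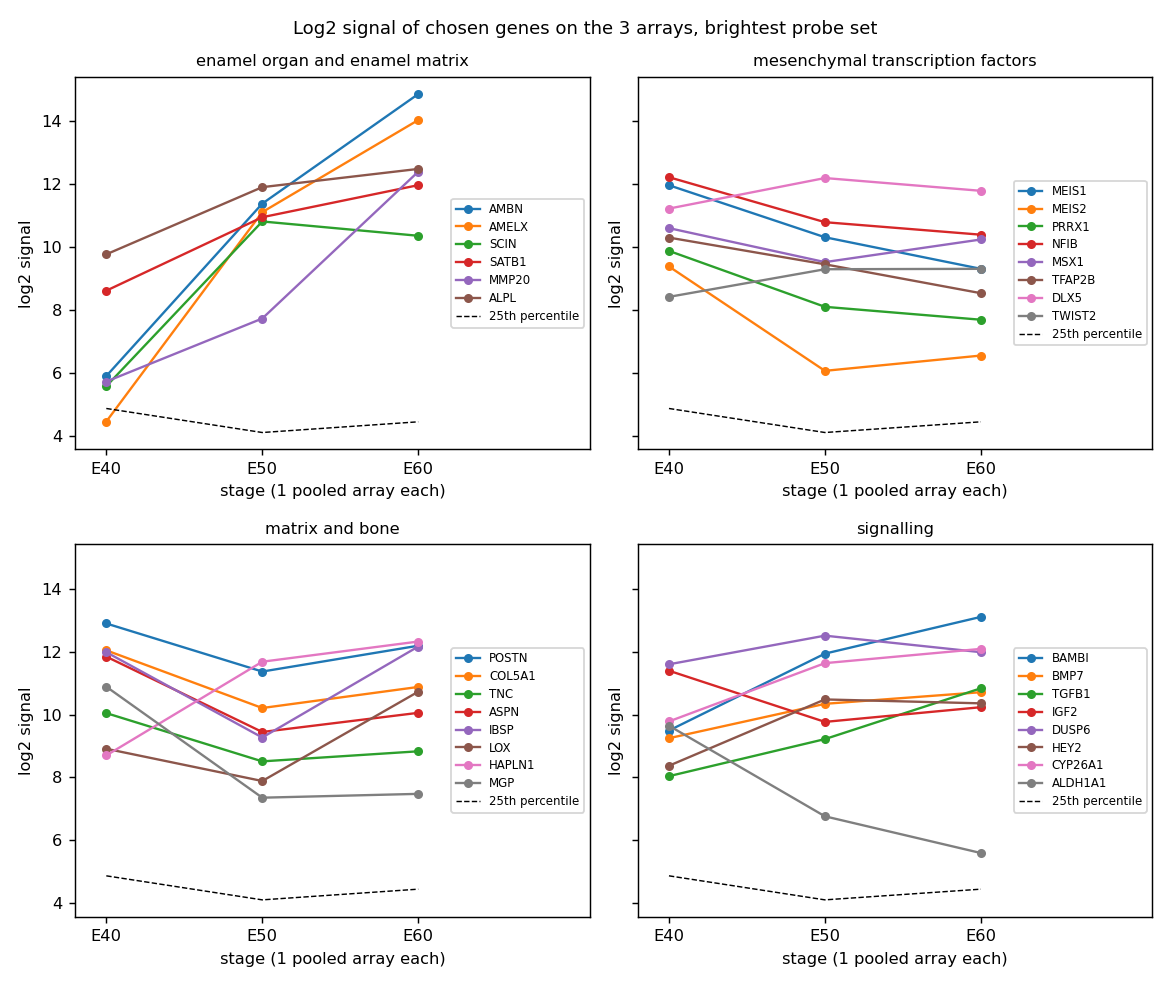
Log2 signal on the E40, E50 and E60 arrays (1 pooled array each) of the brightest probe set of chosen enamel, mesenchymal, matrix and signalling genes, with the floor of each array as a dashed line. AMBN, AMELX and MMP20 climb over all 3 stages, IBSP and LOX dip on E50, and MEIS1, PRRX1 and MGP drop from E40 to E50 and remain low on E60.

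The BMP and TGF-beta pathway held 3 higher and 4 lower of 30 measured genes and a median of 0.06 (9 higher with equal medians). For this list and those below, the shares over all measured genes were 2.7% higher and 8.02% lower. BAMBI, a receptor without a kinase that dampens BMP and TGF-beta signals, was at 719.9 on E40 and 3921 on E50 (5.45-fold higher), and at 132 on E40 and 939 on E50 (7.09-fold higher) on its second probe set. It reached 8817 on E60. TGFB1, a ligand that slows epithelial growth and drives matrix production, was at 263 on E40 and 596 on E50 (2.26-fold higher), and at 95.7 on E40 and 238 on E50 (2.48-fold higher) on its second probe set. BMP7, made by dental epithelium and later by odontoblasts, was at 608 on E40 and 1297 on E50 (2.13-fold higher). BMP4, the mesenchymal signal downstream of MSX1, was at 2329 on E40 and 3160.1 on E50, and TGFB2 at 1321 on E40 and 1119 on E50, both within 2-fold. The BMP response genes ID1, ID3 and ID4 were all above 0 but within 2-fold. ID1 was at 6399 on E40 and 10946 on E50, ID3 at 5344 on E40 and 8875 on E50 and ID4 at 151 on E40 and 259 on E50. The type I receptor BMPR1A, at 1352 on E40 and 1343 on E50, and the shared mediator SMAD4, at 2018 on E40 and 2105 on E50, were nearly equal on both arrays.

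Among the lower members, the protease BMP1, which trims procollagen, was at 850.3 on E40 and 327 on E50 (2.6-fold lower), but its second probe set was at 294 on E40 and 228 on E50. Myostatin (MSTN), the muscle growth inhibitor, went from 69.4 and 47.5 to signals under the floor. Myostatin moved with the muscle list, and the part of muscle in its fall was not tested. The co-receptor TGFBR3, from 60.9, and the inhibin chain INHA, from 51.9, also ended under the floor, and with a common floor INHA had a log2 difference of -0.83. Follistatin (FST), a trap for activin, was at 2225 on E40 and 1277 on E50 on its brightest probe set and at 524 on E40 and 92.6 on E50 (5.66-fold lower) on the other.

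The Wnt list held 2 higher and 1 lower of 19 measured genes, with a median of -0.18 that was 0.20 with equal medians and 0.07 with the spiked controls set equal. The receptor FZD4 was at 949 on E40 and 346 on E50 (2.75-fold lower), and at 207 on E40 and 101 on E50 (2.06-fold lower) on its second probe set. The ligand WNT10B, made by early dental epithelium, was at 34.7 on E40 and 80.9 on E50 (2.33-fold higher), a dim signal, and the inhibitor DKK1 was at 99.1 on E40 and 202 on E50 (2.04-fold higher). With the floor at the 50th percentile neither was over 2-fold. The inhibitor APCDD1 came near 2-fold higher on both probe sets, at 2686 on E40 and 5074 on E50 and 1721 on E40 and 3219 on E50. Several other members stayed within 2-fold on the probe set given. Beta-catenin (CTNNB1) was at 7984 on E40 and 6828 on E50, LEF1, a factor that dental epithelium and mesenchyme need, at 3512 on E40 and 3209.8 on E50, the ligand carrier WLS at 4541 on E40 and 5566 on E50 and the co-receptor LRP6 at 538 on E40 and 446 on E50. TCF7L2, a transcription factor that acts with beta-catenin, was at 51.7 on E40 and 34.8 on E50 on the brightest probe set and at 59.8 on E40 and 18.4 on E50 (3.26-fold lower) on the other, and with the median over the probe sets of a gene 2 genes of the list were lower. The antagonist SFRP1 differed between probe sets, at 6820.0 on E40 and 6369.9 on E50 on the brightest and 2049 on E40 and 580.3 on E50 (3.53-fold lower) on the other.

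In the FGF and other receptor tyrosine kinase pathway 7 of 31 measured genes fell and none rose, although 2 were higher with equal medians, and the median of -0.41 was -0.02 there. Insulin-like growth factor 2 (IGF2), a fetal growth factor, was the 1 gene among the 7 in the brighter part of all measured genes. It has 13 probe sets on the array, of which 3 were under the floor on both arrays. The 6 brightest were all lower, and the first was at 2691 on E40 and 871 on E50 (3.09-fold lower). The next 5 went from 1788 to 473, from 1112 to 468, from 760.3 to 381, from 650.0 to 139 and from 228 to 36.8, of which the third just missed 2-fold. The other 4, all dim, had log2 differences from -1.14 to 0.31. IGF2 is abundant in fetal mesenchyme and muscle, and the muscle list moved with it. The part of these tissues in the fall of IGF2 was not tested.

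The stem cell factor receptor KIT was at 217 on E40 and 49.9 on E50 (4.34-fold lower). FGF2 was at 77.4 on E40 and 22.1 on E50 (3.51-fold lower), and FGF18, a mesenchymal and osteogenic ligand, was at 87.3 on E40 and 7.88 on E50 (at least 5.07-fold lower). These are dim signals, and with the floor at the 50th percentile IGF2 alone of the list was lower over 2-fold. EGF was at 99.9 on E40 and 44.6 on E50 (2.24-fold lower), HBEGF went from 50.7 to a signal under the floor, and IGF2R was at 59 on E40 and 20.3 on E50 (2.91-fold lower). All 3 were within 2-fold after quantile normalization. FGF9, an epithelial ligand, was at 139 on E40 and 191 on E50 and the receptor FGFR1 at 2382 on E40 and 2659.7 on E50. DUSP6, a phosphatase induced by FGF that feeds back on ERK, was at 3099 on E40 and 5828 on E50, just short of 2-fold, and its dim probe set was at 69 on E40 and 266 on E50 (3.85-fold higher).

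The EDA, NF-kappaB and Notch list held 1 higher gene of 11, and a median of -0.37 that was 0.02 with equal medians. HEY2, a target of Notch, was at 331 on E40 and 1429 on E50 (4.31-fold higher), but its second measured probe set was at 68.1 on E40 and 80.9 on E50. Its dimmest was under the floor on E40, and the log2 difference of -0.15 there rests on the floor. The Notch ligand JAG1 was at 4128 on E40 and 2553 on E50 and the target HES1 at 1097 on E40 and 848 on E50, both within 2-fold, but a dim probe set of JAG1 was at 70.7 on E40 and 17.1 on E50 (at least 4.1-fold lower). Hedgehog had 2 measured genes, neither called. GLI1, the readout of hedgehog activity, was at 239 on E40 and 337 on E50 and its inhibitor SUFU at 1023 on E40 and 1085 on E50.

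The retinoic acid list held 2 higher and 2 lower of 15 measured genes and a median of 0.05. CYP26A1, which degrades retinoic acid, was at 879.9 on E40 and 3179 on E50 (3.61-fold higher). CRABP2, which carries it to the nucleus, was at 1304 on E40 and 2993 on E50 (2.3-fold higher). ALDH1A1, which makes it from retinal, was at 800.5 on E40 and 109 on E50 (7.37-fold lower), and at 93.5 on E40 and 39.2 on E50 (2.38-fold lower) on its second probe set. FABP5, another carrier that is also abundant in skin, was at 4372 on E40 and 1839 on E50 (2.38-fold lower), and at 440.0 on E40 and 189 on E50 (2.33-fold lower) on its second. It also stands in the keratinised epithelium list and was within 2-fold with equal medians. The receptors RARB, at 71.6 on E40 and 73 on E50, and RXRB, at 387 on E40 and 471 on E50, were not called. ALDH1A1 was thus lower and CYP26A1 higher on the same array, and the level of retinoic acid was not tested.

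Basement membrane genes held 2 lower, COL7A1 and COL17A1, and none higher of 8, with a median of -0.50. COL7A1, the collagen of anchoring fibrils, was at 582 on E40 and 214 on E50 (2.72-fold lower), and the laminin chain LAMC1 at 4077 on E40 and 2783 on E50. Integrins held 2 lower and none higher of 11, with a median of -0.08 that was 0.31 with equal medians. ITGB3, a chain of the vitronectin receptor of osteoclasts and platelets, was at 229 on E40 and 75 on E50 (3.05-fold lower) and at 216 on E60, and ITGA2 went from 50.3 to a signal under the floor. The shared chain ITGB1, at 5915 on E40 and 5603 on E50, stayed level.

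Interferon-stimulated genes rose, though not all of them. Of 24 measured genes 9 were higher and 1 lower, against 2.7% of all measured genes higher, with a median of 0.26. None of the 3 bright ones passed 2-fold. With the floor at the 50th percentile 6 were higher and the median was 0.006. After quantile normalization 11 were higher and the median was 0.78. Of 6 members with several measured probe sets, DDX58, IFIT1 and GBP1 were higher on all of them. DDX58 (RIG-I), the sensor of viral RNA, was at 78 on E40 and 571 on E50 (7.32-fold higher), and at 33.3 on E40 and 171 on E50 (5.14-fold higher) on its second probe set. IFIT1, which binds foreign RNA, was at 58.6 on E40 and 341 on E50 (5.82-fold higher), and its other probe sets went from under the floor to 91.8 and 84.1. ISG15, a ubiquitin-like modifier, was at 114 on E40 and 719 on E50 (6.34-fold higher). The GTPase MX1 was at 190.2 on E40 and 1035 on E50 (5.44-fold higher), and USP18, which removes ISG15, was at 221 on E40 and 624 on E50 (2.83-fold higher).

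IFIT3 was at 353 on E40 and 753 on E50 (2.13-fold higher), RSAD2 at 13.8 on E40 and 92.8 on E50 (at least 3.17-fold higher) and GBP1 at 35.4 on E40 and 99.1 on E50 (2.8-fold higher). IFIT2 was at 57.8 on E40 and 117 on E50 (2.02-fold higher), with log2 differences of 0.85 and -0.24 on its other probe sets, and with the median over the probe sets of a gene 8 genes of the list were higher. XAF1 was the 1 lower gene, at 82.9 on E40 and 36.9 on E50 (2.24-fold lower). OAS1, at 42.1 on E40 and 38.5 on E50, IRF7, at 146 on E40 and 163 on E50, STAT2, at 442 on E40 and 377 on E50, and the antigen peptide transporter TAP1, at 636 on E40 and 643 on E50, were not called. On E60 the signal was 122 for ISG15, 187 for MX1, 251 for DDX58 and 1.85 for RSAD2. In the later step 10 genes of the list were over 2-fold lower and none higher, so the high signals stood on the E50 array, which is 1 litter.

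Secreted peptide genes moved in both directions, with 6 of 27 measured genes higher and 5 lower, and a median of -0.21 that was 0.18 with equal medians. Gonadotropin-releasing hormone (GNRH1), the hypothalamic hormone of reproduction, was at 19.6 on E40 and 751 on E50 (at least 25.7-fold higher). Thyrotropin-releasing hormone (TRH) was at 59.5 on E40 and 943 on E50 (15.8-fold higher). Parathyroid hormone-like hormone (PTHLH), which dental epithelium secretes and which the alveolar bone needs to make room for the tooth, was at 2416 on E40 and 6534 on E50 (2.7-fold higher), while its receptor PTH1R fell as given above. Galanin (GAL) was at 128 on E40 and 367 on E50 (2.86-fold higher), neuromedin B (NMB) at 16.1 on E40 and 72 on E50 (at least 2.46-fold higher) and the prohormone convertase PCSK2 at 29.7 on E40 and 94.3 on E50 (3.17-fold higher). GNRH1 and TRH have 1 named probe set each, so their rises have no second probe set to set beside them. Among the lower, angiotensinogen (AGT) was at 122 on E40 and 6.34 on E50 (at least 7.1-fold lower), and stanniocalcin 1 (STC1) at 328 on E40 and 89.9 on E50 (3.65-fold lower). The neuropeptides CARTPT, PDYN and PMCH were the other lower members, all from E40 signals of 115 or less.

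Beyond the lists, further genes rose on every measured probe set. HSD17B2, which inactivates sex steroids, was at 289 on E40 and 1025 on E50 (3.55-fold higher), and at 147 on E40 and 344 on E50 (2.34-fold higher) on its second probe set. LPAR3, a receptor for lysophosphatidic acid, was at 95.8 on E40 and 391 on E50 (4.08-fold higher), and at 39 on E40 and 79.97 on E50 (2.05-fold higher). RCAN1, an inhibitor of calcineurin, was at 3887 on E40 and 8665 on E50 (2.23-fold higher), and at 368 on E40 and 1255 on E50 (3.41-fold higher). The other such genes were IER5, an early response gene at 800.3 on E40 and 2646 on E50 (3.31-fold higher), EMB, an adhesion protein at 105 on E40 and 375 on E50 (3.59-fold higher), ST6GAL1, a sialyltransferase at 549 on E40 and 1366 on E50 (2.49-fold higher), TAMM41, a mitochondrial lipid enzyme at 539 on E40 and 1363 on E50 (2.53-fold higher), and FAM84A at 3132 on E40 and 6421 on E50 (2.05-fold higher). FAM84A was at a log2 difference of 0.91 after quantile normalization. With those named before, these are all 16 genes of that kind.

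Among genes judged on 1 probe set that was above the floor on both arrays, CKMT1A, a mitochondrial creatine kinase, was at 42 on E40 and 899 on E50 (21.4-fold higher), and at 3476 on E60. Carbonyl reductase (CBR1) was at 30.6 on E40 and 369.6 on E50 (12.1-fold higher), alpha-1 antitrypsin (SERPINA1) at 253 on E40 and 2519.9 on E50 (9.95-fold higher) and the melanocortin receptor accessory protein MRAP2 at 45.6 on E40 and 286 on E50 (6.27-fold higher). The last was not over 2-fold with the floor at the 50th percentile.

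**Figure D5:**
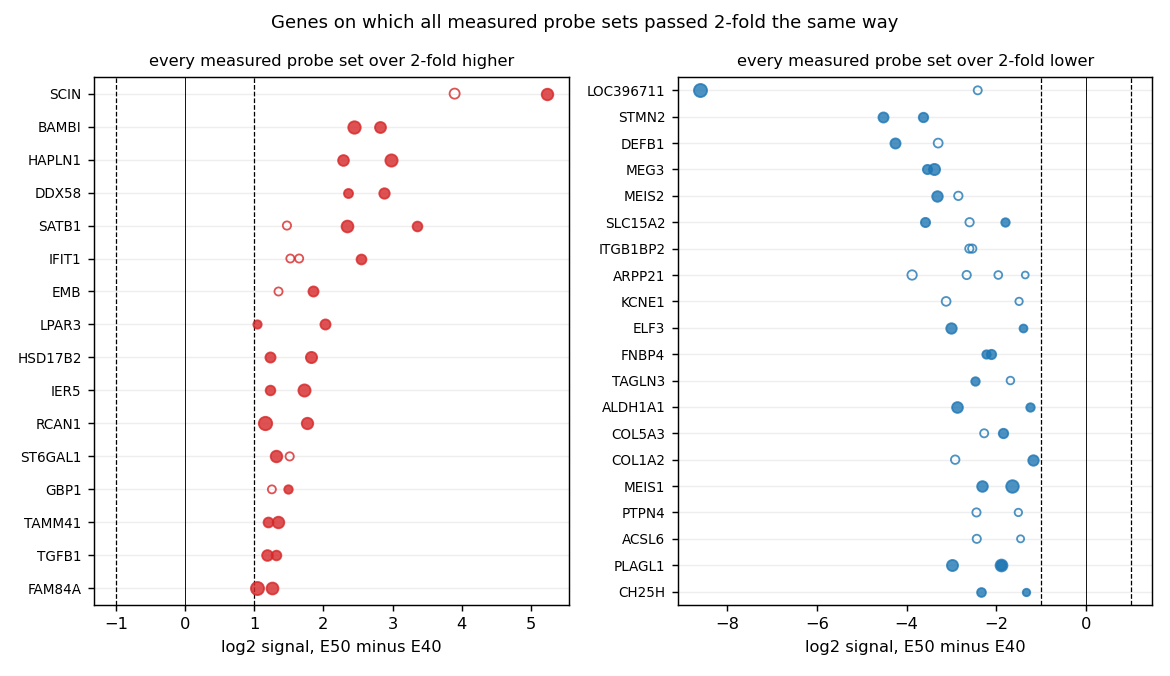
Log2 signal on E50 minus E40 for each measured probe set of the 16 genes with all of them over 2-fold higher (left) and of the 20 genes outside muscle and keratinised epithelium with the largest median falls among those with all of them lower (right), with open circles for probe sets with 1 signal under the floor. The axes of the panels differ, and every circle lies past the dashed 2-fold line.

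Outside the lists of skeletal muscle and keratinised epithelium, some nerve and muscle genes were among those that fell on every measured probe set. Stathmin 2 (STMN2), a microtubule protein of growing axons and a member of the nerve and Schwann list, was at 459.6 on E40 and 19.98 on E50 (23-fold lower), and at 263 on E40 and 21.2 on E50 (12.4-fold lower) on its second probe set, and TAGLN3, another neuronal gene, was at 116 on E40 and 20.7 on E50 (5.6-fold lower). Melusin (ITGB1BP2), a striated muscle protein that the muscle list does not hold, went from 100.1 and 105 to signals under the floor. XIRP2, likewise from muscle, was at 373 on E40 and 19.6 on E50 (19.1-fold lower). Defensin beta 1 (DEFB1), an antimicrobial peptide of surface epithelia, was at 463 on E40 and 24.1 on E50 (19.3-fold lower), and SERPINB11 was at 1330.2 on E40 and 78.5 on E50 (16.9-fold lower). The peptide transporter SLC15A2 fell on 3 probe sets, the first at 218 on E40 and 18.2 on E50 (12-fold lower).

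NR2F1, an orphan nuclear receptor of neural crest and facial mesenchyme, was at 625 on E40 and 26.2 on E50 (23.9-fold lower). FIBIN, a secreted protein of limb and fin mesenchyme, was at 2084 on E40 and 114 on E50 (18.3-fold lower), and at 746 on E60. C1QTNF3, a secreted protein of cartilage and fibroblasts, was at 937 on E40 and 23.7 on E50 (39.5-fold lower). C1QTNF3 and NR2F1 have 1 probe set each, the second of FIBIN was near the floor, and all 3 genes fell further than any gene of the dental mesenchyme list. Cholesterol 25-hydroxylase (CH25H) was at 146 on E40 and 28.7 on E50 (5.1-fold lower), and ARPP21, KCNE1, PTPN4, ACSL6 and FNBP4 were lower on every measured probe set, from E40 signals of 254 or less. LOC396711 went from 9251 to 23.5, the largest fall of all these, LOC100515166 from 11398 to 229.9 and LOC100523870 from 836 to 52.1.

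Other tissues that a dissected germ can hold showed smaller shifts. Over all measured genes 2.7% were higher and 8.02% lower, and falls were more frequent among dim genes. Endothelial genes held 4 lower and none higher of 15, a median of -0.55 and a summed signal of 4638 on E40 and 2861 on E50. VE-cadherin (CDH5) was at 1070.5 on E40 and 502 on E50 (2.13-fold lower), with a log2 difference of -0.71 on its second probe set, but with equal medians only 1 gene of the list was lower over 2-fold. Macrophage and osteoclast genes held 3 lower and 1 higher of 19, of which 1 was bright, and their summed signal went from 5031 to 4679. Their median of -0.60 was -0.37 with a common floor and 0.07 with the floor at the 50th percentile. The adaptor TYROBP was at 101 on E40 and 8.48 on E50 (at least 5.85-fold lower), while cathepsin K (CTSK), the collagenase of osteoclasts, was at 1988 on E40 and 2164 on E50. Nerve and Schwann genes held 2 higher and 2 lower of 12, with a median of -0.28 and a summed signal of 4559 and 5088. The axonal growth protein GAP43 was at 166 on E40 and 409 on E50 (2.47-fold higher) and the glial S100B at 398 on E40 and 849.8 on E50 (2.14-fold higher), against the fall of STMN2. Cartilage genes held 2 lower and 1 higher of 5. The higher one was HAPLN1, which is also in the dental mesenchyme and proteoglycan lists. Type II collagen (COL2A1), the defining cartilage gene, was at 76.4 on E40 and 48.8 on E50. Erythroid genes held none called of 4, with beta globin (HBB) at 2038 on E40 and 1759 on E50. Of Y-linked genes and XIST, 1 was measured, EIF1AY at 534 on E40 and 452 on E50. The part of any of these tissues in the results was not tested.

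In the lists of general cell functions most genes stayed within 2-fold. Proliferation genes held 1 higher (5 with equal medians) and none lower of 37, with a median of 0.27 and 26 of 37 above 0, and topoisomerase TOP2A was at 4129 on E40 and 4799 on E50. Oxidative phosphorylation held 58 of 63 genes above 0 and a median of 0.34, with 2 higher (8 with equal medians) and 2 lower. The largest of these changes was that of COX8H, the heart and muscle form of a cytochrome oxidase subunit, which was at 343 on E40 and 4.59 on E50 (at least 19.9-fold lower). Proteasome genes had 32 of 37 above 0, a median of 0.27 and none called. All bright genes, which most of these are, had a median of 0.15. Ribosomal protein genes had a median of -0.01 with 3 lower and none higher of 66, and housekeeping genes a median of 0.01 with none called of 13. Chromatin modifiers had a median of -0.10, with SATB1 higher and CHD7, at 882 on E40 and 433 on E50 (2.04-fold lower), lower among 59. RNA splicing had 4 lower and none higher of 77, and a median of 0.04. The kinases CLK1, at 3845 on E40 and 1763 on E50 (2.18-fold lower), and CLK4, at 832 on E40 and 393 on E50 (2.12-fold lower), were among the 4. Solute carriers held 12 lower (12.1%, against 8.02% of all measured genes) and none higher of 99, with a median of -0.09, and counts of 7 and 7 with equal medians.

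Set beside the later step, E60 against E50, which shares the E50 array, several lists had other values. The enamel list had 5 higher and none lower of 6 measured genes, with a median of 3.21. Collagens and fibrillar matrix had 6 higher and 1 lower of 29 and a median of 0.32, and dental mesenchyme 3 higher and 1 lower of 28 and a median of 0.05. Dentin and bone matrix had 3 higher and none lower of 17, with a median of 0.48. Skeletal muscle had 3 higher and 4 lower of 30 measured genes. Of the matrix genes lower on E50, POSTN was at 4668 on E60, COL1A2 at 473, TNC at 455 and THBS2 at 513. Of the transcription factors, MEIS1 was at 636, MEIS2 at 94, NFIB at 1349, PRRX1 at 207 and MSX1 at 1214. LOX, LOXL4, IBSP and COL1A2 were among the genes over 2-fold higher on E60 than on E50, while MEIS1 was over 2-fold lower again.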

How the data were processed

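RNA extracted with TRIZOL from pooled molar germs was labelled with the GeneChip 3' IVT Express kit and hybridized to 1 Affymetrix Porcine Genome Array per stage. Per the labels the authors computed MAS 5.0 signals, and the deposited values are log2 signals, one per probe set and array, which were used without further scaling. The trimmed mean signal was checked and is 500.1 on each array. The number of arrays limits the precision.

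From the deposited log2 values, E50 minus E40 was computed for 23999 probe sets after signals under the 25th percentile of their array had been raised to it, and a call is a difference over 2-fold. No test was possible with 1 array per stage. Gene symbols came from the platform annotation, where 10069 probe sets carry a single symbol, 198 more than 1, and 13732 have no symbol. By gene ID, 9961 of those with a single symbol were found in RefSeq's gene table, and 0 symbols changed. A gene is represented by its brightest probe set among those with 1 symbol. Genes without a symbol there were not analysed here. Probe sets of 1 gene may share transcripts with near-identical copies, and the alternative without shared-match suffixes covers this in part.

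The comparison, the members and the 33 gene lists were chosen with earlier results of these data known, and 1 list (imprinted genes) after these values had been seen, so no list is independent evidence of its direction. The lists cover tooth epithelium and mesenchyme, signalling, matrix, interferon response, secreted peptides, neighbouring tissues and general cell functions, and 903 of their 1518 genes have a symbol on the array. Named genes, outside muscle and keratinised epithelium, are the 20 largest rises and 20 largest falls among genes with all of 2 or more measured probe sets over 2-fold the same way, the 10 largest rises and falls with both signals above the floor, every called member of the tooth and signalling lists, at most 4 brightest members of each list, and genes the study names. Other genes are members of the lists, named after their values were seen.

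Alternatives for the floor were none, the 50th percentile and 1 floor for both arrays. For the scaling they were equal array medians, quantile normalization of both arrays, and housekeeping genes set equal. The rest were a threshold of 3-fold, named probe sets alone, the brightest probe set of each symbol, leaving out the suffixes _s_at and _x_at, and, per gene, the median of its probe sets. Scaling to the spiked controls was added after seeing the data. The scripts were tested on simulated data. Python 3.11.15, numpy 2.4.6, pandas 2.3.3, scipy 1.17.1 and matplotlib 3.10.9 were used.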

Additional observations from a re-analysis of the deposited data

How the results depend on the processing

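The counts of probe sets higher and lower on E50 (477 and 2862, with 14.3% higher among those called) moved with the floor, the scaling and the threshold. Without a floor they were 1555 and 5011 (23.7%), and with the floor at the 50th percentile 262 and 902 (22.5%). A common floor gave 17.8%. With equal medians they were 1455 and 1808 (44.6%), after quantile normalization 1220 and 1631 (42.8%), and scaled to housekeeping genes 13.1% were higher. Scaled to the spiked controls, which was chosen after seeing the data, 960 were higher (31.3%). At 3-fold they were 126 and 1453, among probe sets with 1 symbol 229 and 846 (21.3%), and with 1 probe set per symbol 167 and 497 (25.2%).

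Genes with every probe set over 2-fold higher or lower (16 and 47) became 21 and 87 without a floor. They were 6 and 11 with the floor at the 50th percentile and 37 and 25 with equal medians. After quantile normalization they were 22 and 21, with the spiked controls 28 and 30, and at 3-fold 4 and 15. List medians moved for skeletal muscle (-4.87 without a floor and -3.03 with the 50th percentile), the enamel list (3.46 with the 50th percentile and 3.79 with a common floor), secreted peptides (0.47 with the 50th percentile), macrophage and osteoclast genes (0.069 with the 50th percentile), cartilage (2.98 with the 50th percentile and -0.045 after quantile normalization) and keratinised epithelium (-0.39 with a common floor and -0.47 after quantile normalization). The 2.98 for cartilage is the log2 difference of HAPLN1, the 1 cartilage gene called at that floor, and is no rise of the list. The cause of these moves was not tested, except that higher floors leave fewer dim genes in a list.

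Of 101 named genes called over 2-fold, 101 kept the call without a floor and with housekeeping scaling, 100 without the _s_at and _x_at probe sets, 97 with a common floor and with the median over probe sets, 93 with the spiked controls, 89 with equal medians and after quantile normalization, and 71 of 79 still measured with the floor at the 50th percentile. No paired analysis was possible because each stage has 1 array, and for the same reason no array was left out. Dim signals limit the folds, since 3.00% of probe sets on E50 and 1.58% on E40 were at the lowest value the table holds.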

Other observations

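Imprinted genes, which are expressed from 1 parental allele and many of which act on fetal growth, were gathered into a list after MEG3, PLAGL1 and IGF2 had been seen among the falls, so the list is a description only. Of 14 measured genes 5 were over 2-fold lower on E50 and none was higher, against 8.02% and 2.7% of all measured genes. With equal medians 1 was higher, and after quantile normalization 2 were. The median log2 difference of -0.33 was 0.06 with equal medians. MEG3, a long noncoding RNA, was at 1205 on E40 and 116 on E50 (10.4-fold lower), and at 219 on E40 and 18.8 on E50 (11.7-fold lower) on its second probe set. PLAGL1, a zinc finger regulator of growth genes, fell on 3 probe sets, with signals of 1979.7 on E40 and 528 on E50 (3.75-fold lower), 1076 on E40 and 136 on E50 (7.93-fold lower) and 166 on E40 and 44.8 on E50 (3.71-fold lower). PHLDA2, a restrainer of placental growth, was at 416 on E40 and 133 on E50 (3.12-fold lower), and IGF2 and IGF2R fell as given above. PEG10 was within 2-fold, at 10486 on E40 and 5821 on E50. Other members stayed close, with necdin (NDN) at 1835 on E40 and 1639 on E50, PEG3 at 766 on E40 and 572 on E50, GRB10 at 827 on E40 and 857 on E50 and SNRPN at 2594 on E40 and 2309 on E50. On E60, PLAGL1 was at 840.3 and MEG3 at 129, and no gene of the list was over 2-fold apart between E50 and E60. MEG3, IGF2 and PLAGL1 are also abundant in fetal muscle and connective tissue, and the muscle list, 38 of 42 lower, moved with them. The part of that tissue was not tested.

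Probe sets of 1 gene could also part ways. CANX, the chaperone calnexin, has 6 measured probe sets with log2 differences from -2.46 to 1.03 and a median of 0.04. The muscle tropomyosin gene TPM2 was at 2478 on E40 and 1311 on E50 on its brightest probe set and at 2823 on E40 and 54.4 on E50 (51.9-fold lower) on another. TPM2 makes smooth and skeletal muscle forms from 1 gene, and which form a probe set reads was not tested here.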
